A study of Mus musculus with 6 samples.

Results

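The miRNA families of miR-99 with miR-100 and of miR-125 are described here in extracellular vesicles of mouse brain, membrane-bound particles that cells release, whose microRNAs (miRNAs) were sequenced. The 5 members were the entries of the deposited table named miR-99a-5p, miR-99b-5p, miR-100-5p, miR-125a-5p and miR-125b-5p, out of 1926 miRNAs listed and 775 detected in at least 1 library. Each member had an entry of its own, and all 5 passed the filter used for testing, a mean of 10 or more RPM (reads per 1000000 miRNA reads), as did 290 miRNAs in all. The 6 libraries formed 2 groups of 3. The SE group held vesicles from the brains of mice that had been through status epilepticus, a prolonged seizure, and the CON group held vesicles from control mice. The title of the series gives 24 hr. The strain, age, sex, genotype, the agent that set off the seizures and any pooling of animals are not stated by the labels. Whether each replicate was a different animal is not stated either, so the spread behind each p-value may be partly or wholly technical. In bulk vesicle RNA, fewer vesicles of a kind and less of a miRNA per vesicle cannot be told apart.

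A miRNA is cut from a hairpin RNA and, loaded into an Argonaute protein, pairs with messenger RNAs mainly through its seed, bases 2 to 8, which lowers their translation and stability. miR-125 is the vertebrate counterpart of lin-4, the first miRNA described in the worm, and promotes neuronal differentiation. miR-99 and miR-100 are known as repressors of the growth kinase mTOR. In mammals their hairpins lie with let-7 hairpins, let-7 being the other classic miRNA of developmental timing, in shared primary transcripts.

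The mature sequences, from the RefSeq table of build GRCm38.p6, show why the 5 members fall into 2 families that share no seed. Capitals mark the seed. All 5 were matched by name.
miR-99a-5p: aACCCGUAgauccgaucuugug
miR-100-5p: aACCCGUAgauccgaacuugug
miR-99b-5p: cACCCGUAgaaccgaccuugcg
miR-125b-5p: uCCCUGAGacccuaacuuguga
miR-125a-5p: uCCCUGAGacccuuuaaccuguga

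miR-99a-5p and miR-100-5p differ by 1 substitution, U16A, counted from the 5′ end of miR-99a-5p with its base first. miR-99b-5p differs from miR-99a-5p by 4 substitutions, A1C, U11A, U16C and U21C, none of which falls in the seed. miR-125a-5p has 24 bases and miR-125b-5p has 22, and they share their first 13 bases. How the authors assigned reads that fit several members is not known from the labels or headers, so the split between miR-99a-5p and miR-100-5p is less certain than their sum. Over the 1679 mature names of that table, the first seed occurs in these 3 miRNAs alone, and the second also occurs in miR-351-5p, miR-6367 and miR-6394. miR-6367, whose first 13 bases equal those of both miR-125 members, and miR-6394 were listed at 0 in every library.

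By RefSeq positions on GRCm38.p6, miR-99a-5p lies at chr16:77598940-77598961, miR-100-5p at chr9:41531437-41531458, miR-99b-5p at chr17:17830194-17830215 and miR-125a-5p at chr17:17830817-17830840, each on the plus strand. miR-125b-5p has 2 sources with identical mature sequence, Mir125b-1 at chr9:41581940-41581961 and Mir125b-2 at chr16:77646279-77646300, also on the plus strand. The hairpins therefore form 3 clusters, each with 1 let-7 hairpin between its outer ones. On chromosome 16, Mir99a, Mirlet7c-1 and Mir125b-2 lie in introns of the long non-coding gene Mir99ahg in GENCODE release M21, with Mirlet7c-1 starting 721 bases and Mir125b-2 47337 bases after the start of Mir99a. On chromosome 17, Mir99b and Mirlet7e lie in introns of the protein-coding gene Spaca6 and Mir125a overlaps one of its annotated exons, all within 624 bases from start to start. On chromosome 9, Mir100, Mirlet7a-2 and Mir125b-1 lie in introns of the non-coding genes 3110039I08Rik and Gm49317, over 50501 bases. Mir125b-1 also overlaps an exon of Gm28119, and Mir100 an exon of Gm48742 on the opposite strand. Their let-7 neighbours carry a seed of their own. The let-7a-5p sequence below is the one RefSeq lists for Mirlet7a-1 on chromosome 13, as it lists none under Mirlet7a-2.
let-7c-5p: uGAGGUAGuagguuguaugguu
let-7e-5p: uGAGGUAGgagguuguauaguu
let-7a-5p: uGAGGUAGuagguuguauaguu

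Whole-library values bear on what follows. The libraries held 5482407 to 10845434 miRNA reads, and the let-7 guide strands, miR-98-5p included as a let-7 family member, took 77.5% to 81.4% of them, so every other miRNA shared the remainder. In the deposited RPM table the CON values do not stand beside their own miRNA names, and they were put back with the base means of the authors' table of fold changes. All 687 CON rows above 0 found their name within a relative tolerance of 1e-05. Directions follow the SE and CON labels of the columns, which nothing else in these files checks. The brain origin was visible in neuronal miRNAs: miR-124-3p stood at 1689 to 3082 RPM and miR-9-5p at 6443 to 8906 RPM over the 6 libraries. The oligodendrocyte miRNA miR-219a-5p reached at most 0.598 RPM, while miR-219a-2-3p stood at 27.8 to 54.7 RPM and miR-338-3p at 214 to 424 RPM. Of the red cell miRNAs, miR-144-3p was at 0 in all libraries and miR-451a in 5 of 6, while the entry miR-486a-5p/486b-5p stood at 16.8 to 32.2 RPM.

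miR-125b-5p was the most abundant member. Its level was 3264, 3659 and 3023 RPM in SE replicates 1, 2 and 3, and 4478, 3196 and 3737 RPM in CON replicates 1, 2 and 3. The groups overlapped, with the highest value in CON replicate 1 and the lowest in SE replicate 3. miR-125a-5p, the other lin-4 homolog, followed at 1754, 1640 and 1406 RPM in the SE libraries and 1903, 1548 and 1702 RPM in the CON libraries, again with overlap.

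Of the miR-99 seed family, miR-99b-5p was the most abundant at 678, 562 and 699 RPM in the SE libraries and 760, 845 and 846 RPM in the CON libraries. Every SE value lay below every CON value, as for 13.4% of all tested miRNAs. The same held for miR-99a-5p, at 159, 145 and 186 RPM in the SE libraries and 229, 191 and 266 RPM in the CON libraries, though SE replicate 3 and CON replicate 2 nearly met. miR-100-5p stood at 150, 126 and 184 RPM in the SE libraries and 157, 162 and 201 RPM in the CON libraries, and its groups overlapped.

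**Figure D1:**
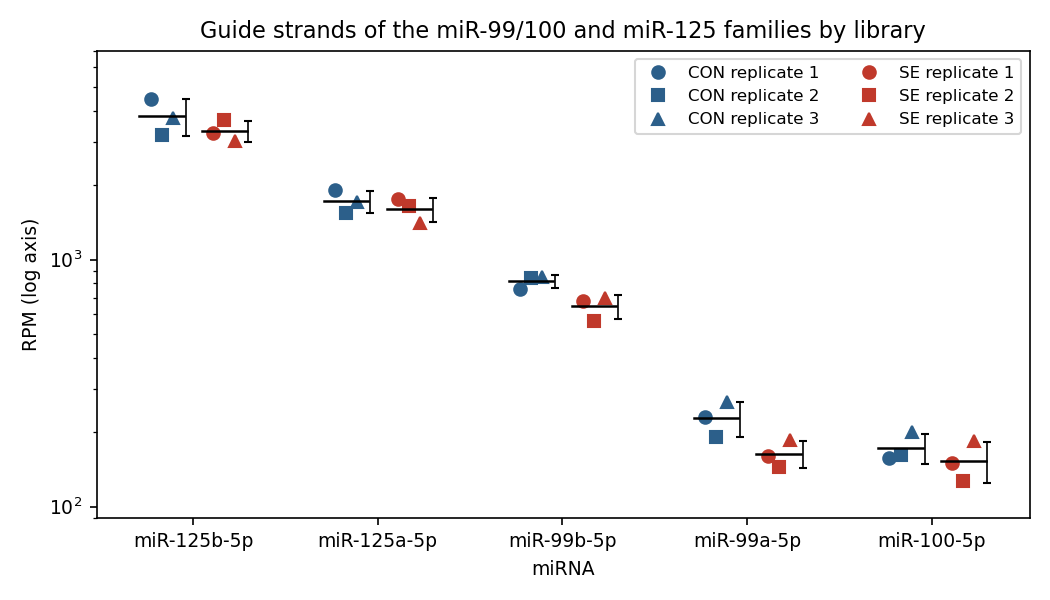
RPM on a log axis for the 5 members, with 1 point per library, a bar at the group mean and whiskers of 1 SD (n = 3 per group). miR-99a-5p and miR-99b-5p have all 3 SE points below the 3 CON points, as 13.4% of all tested miRNAs do. The points of the other members overlap between groups.

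The order of the levels, miR-125b-5p over miR-125a-5p over miR-99b-5p over miR-99a-5p and miR-100-5p, was the same in all 6 libraries. miR-125b-5p, miR-125a-5p and miR-99b-5p were each separated from the next beyond their spread, since the lowest value of each lay above the highest of the next over all libraries. miR-99a-5p and miR-100-5p were not, as their ranges of 145 to 266 RPM and 126 to 201 RPM overlapped, although miR-99a-5p was the higher one within each library. These are read levels of molecules of 22 to 24 bases, not divided by length, and ligation and amplification can favour some miRNAs over others. Among the 775 detected miRNAs the ranks by mean RPM were 25 for miR-125b-5p, 37 for miR-125a-5p, 55 for miR-99b-5p, 89 for miR-99a-5p and 98 for miR-100-5p. Their neighbours in level were miR-674-5p (3616 RPM) and miR-103-3p/107-3p (3352 RPM) for miR-125b-5p, miR-143-3p (1671 RPM) and miR-30a-3p (1569 RPM) for miR-125a-5p, and miR-342-3p (747 RPM) and miR-181a-5p (723 RPM) for miR-99b-5p. miR-99a-5p lay between miR-574-5p (198 RPM) and miR-1298-5p (196 RPM), and miR-100-5p between miR-376a-3p (166 RPM) and miR-3473b/3473e (163 RPM).

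Read counts can be set beside the spread between libraries, while depth in separate molecules is not known. The 5 members had 760 to 35402 reads per library, for which counting alone gives a coefficient of variation of at most 3.63%. The coefficient of variation between the 3 libraries of a group ran from 6.01% for miR-99b-5p in CON to 18.8% for miR-100-5p in SE. Reads copied by amplification are not separate molecules, so the counting value covers counting error only.

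Together the 5 members took 0.588% ± 0.0336 of all reads in the SE group and 0.674% ± 0.0792 in the CON group (SD, n = 3). The SE libraries held 0.601%, 0.613% and 0.550%, and the CON libraries 0.753%, 0.594% and 0.675%, so the groups overlapped. Of the reads left once the let-7 guide strands are set aside, the members took 2.95% ± 0.134 (SE) and 3.10% ± 0.237 (CON; SD, n = 3). The make-up of the sum was close in both groups: miR-125b-5p made up 56.3% ± 2.90 of it in SE and 56.2% ± 2.94 in CON (SD, n = 3), and miR-125a-5p 27.2% ± 1.85 and 25.5% ± 0.463. miR-99b-5p gave 11.1% ± 1.78 and 12.3% ± 2.07, and miR-99a-5p with miR-100-5p 5.43% ± 1.18 and 5.99% ± 0.891. These shares carry no test, since the members were chosen with results of these data known.

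The comparison of SE with CON vesicles asks whether the families differ in abundance after status epilepticus, and none of the 5 members passed the test. In limma-trend on log2(RPM + 1), a scale on which the change of low miRNAs is understated, 0 of 5 had an adjusted p under 0.05, beside 1.03% of the 290 miRNAs tested (0.69% lower in SE). At an unadjusted p under 0.05 there was 1 of 5, miR-99a-5p, beside 9.31% of all tested (7.59% lower in SE). limma-voom on recovered reads also called 0 of 5, beside 3 of the 290 tested. At an unadjusted p under 0.05 it had 1 of 5, and its share over all tested was not computed. By the adjusted values of the authors' deposited table, 0 of 5 passed the same threshold, beside 1.04% of its miRNAs. Before adjustment, 0 of 5 passed it in the authors' deposited table as well, which gives miR-99a-5p the lowest value of the 5, 0.0722. The share of all its miRNAs that passed before adjustment was not computed.

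Among the members miR-99a-5p had the largest difference, with means of 163 RPM ± 20.7 for SE and 229 RPM ± 37.3 for CON libraries (SD, n = 3). The limma fit gave a log2 difference, SE minus CON, of -0.48 (standard error 0.21, 95% interval -0.92 to -0.04) with adjusted p = 0.486. Its unadjusted p passed 0.05 and the adjusted p did not. It was the 19th lowest log2 difference of the 290. miR-99b-5p averaged 647 RPM ± 73.5 for SE and 817 RPM ± 49.1 for CON (SD, n = 3), and limma gave -0.34 (standard error 0.18, interval -0.72 to 0.04) with adjusted p = 0.608. For these 2 of the 5 members every SE library lay below every CON library, as for 13.4% of all tested miRNAs in that direction. The reverse, SE higher without overlap, held for 0 of 5 members and 1.38% of all tested. With the RPM rescaled without let-7 or by the median of ratios, both members overlapped, and the share of all tested miRNAs fell to 7.5% and 7.24%.

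The other 3 members had intervals on both sides of 0. limma gave miR-100-5p a log2 difference of -0.18 (interval -0.63 to 0.27, adjusted p = 0.871), from means of 153 RPM ± 28.9 for SE and 173 RPM ± 24.01 for CON (SD, n = 3). For miR-125b-5p it was -0.19 (interval -0.53 to 0.15, limma adjusted p = 0.826), from 3315 RPM ± 321 for SE and 3804 RPM ± 643 for CON (SD, n = 3). miR-125a-5p had the smallest difference, -0.10 (interval -0.46 to 0.25, limma adjusted p = 0.893), from 1600 RPM ± 177 and 1718 RPM ± 178 (SD, n = 3). Single libraries moved these small differences by over 1.5 times. That of miR-100-5p was -0.05 without SE replicate 2, -0.32 without SE replicate 3 and -0.07 without CON replicate 3. That of miR-125b-5p was -0.06 without CON replicate 1, -0.12 without SE replicate 3 and -0.31 without CON replicate 2. For miR-125a-5p it was -0.01 without SE replicate 3, -0.03 without CON replicate 1, -0.17 without SE replicate 1 and -0.18 without CON replicate 2. On the fold scale the unadjusted 95% intervals reach from 0.644 to 1.204 for miR-100-5p, 0.694 to 1.11 for miR-125b-5p and 0.729 to 1.19 for miR-125a-5p, SE over CON.

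**Figure D2:**
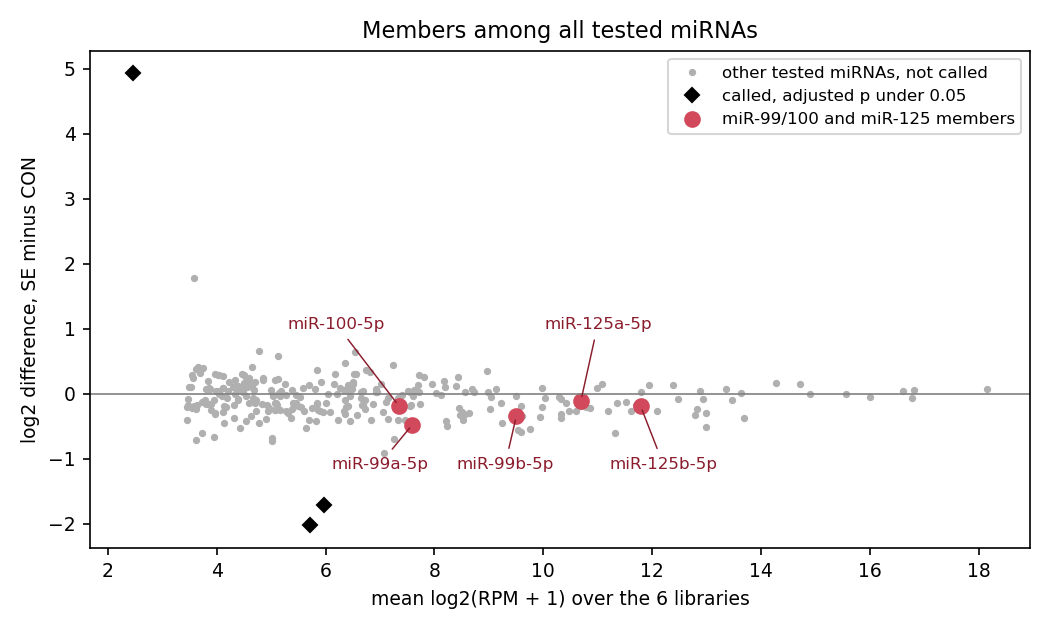
Log2 difference, SE minus CON, against the mean of log2(RPM + 1) over the 6 libraries for the 290 tested miRNAs, with the 5 members as large labelled points and the 3 called miRNAs as diamonds. The members lie at -0.10 to -0.48, within the band of the miRNAs that were not called.

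All 5 differences were below 0 on the RPM scale, where 59.7% of all tested miRNAs were and the median of all was -0.07, but that of miR-125a-5p was just above 0 with median-of-ratios scaling, quantile normalization and RPM rescaled without let-7. The median of the 5 members was -0.19, beside a median of -0.07 for all tested. Median-of-ratios scaling moved the median of all tested miRNAs by about 0.1 to 0.03 and that of the members to -0.08. Without the let-7 guide strands the medians were 0.04 and -0.06. miR-99a-5p was then at -0.37 and -0.35, and at -0.29 with quantile normalization, and miR-99b-5p at -0.24, -0.22 and -0.10. In the same order miR-100-5p was at -0.08, -0.06 and -0.09, and miR-125b-5p at -0.08, -0.06 and -0.07.

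**Figure D3:**
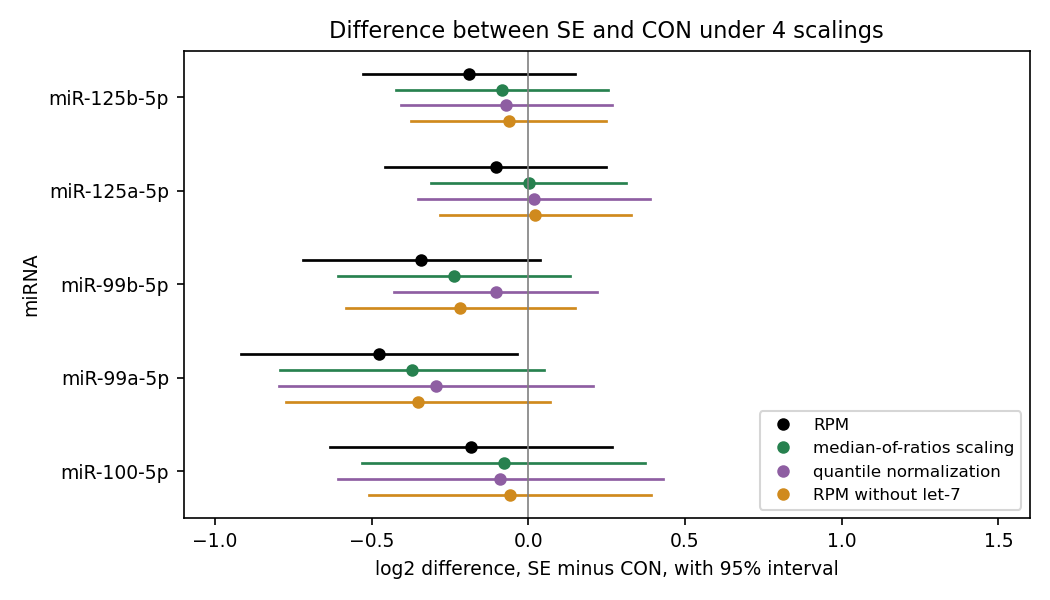
Log2 difference, SE minus CON (points), with unadjusted 95% intervals from limma (lines) for the 5 members under 4 scalings, over 3 SE and 3 CON libraries. miR-99a-5p stays between -0.48 and -0.29, and its interval leaves out 0 with RPM but not with the other 3 scalings.

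In the authors' deposited table, whose positive values stand for a higher level in CON, the log2 fold changes were 0.37 (standard error 0.20) for miR-99a-5p and 0.23 (standard error 0.16) for miR-99b-5p. The authors' deposited table gives 0.06 for miR-100-5p, 0.09 for miR-125b-5p and 0.00026 for miR-125a-5p, the last with a standard error of 0.08. Their adjusted p in the authors' deposited table is 0.975 for all but miR-125a-5p, which has 0.999. These values are not independent of the ones above, since that table served to put the CON rows back.

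Within a library, a ratio of 2 miRNAs does not depend on how the library was scaled, and the clusters give such ratios between products of 1 primary transcript. The let-7 guide strands, however, differed little between SE and CON in RPM. Their log2 differences were 0.07 for let-7c-5p, 0.04 for let-7a-5p and 0.00 for the entry of let-7e-5p and let-7k. Ratios to them therefore largely repeat the differences in RPM and are no separate reading. As let-7 makes up most of the reads that RPM divides by, its small differences do not make it a fixed reference. In the authors' deposited table, positive for CON, the log2 fold changes were -0.18 for let-7c-5p, -0.16 for let-7a-5p and -0.13 for the let-7e-5p entry. Their adjusted p in the authors' deposited table is 0.975. let-7c-5p, which Mirlet7c-2 on another chromosome also yields, stood 1015-fold to 2154-fold above miR-99a-5p in the 6 libraries. let-7a-5p, also made from Mirlet7a-1, stood 492-fold to 718-fold above miR-100-5p. In the compact Spaca6 cluster the gap was smaller: the entry that holds let-7e-5p and let-7k stood 33.9-fold to 53.0-fold above miR-99b-5p and 15.8-fold to 24.7-fold above miR-125a-5p. These folds are on the RPM + 1 scale. let-7a-5p differs from let-7c-5p and from let-7e-5p by 1 substitution each, and let-7c-5p from let-7e-5p by 2. How reads were assigned among them is not known, so each let-7 level and fold is less certain.

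**Figure D4:**
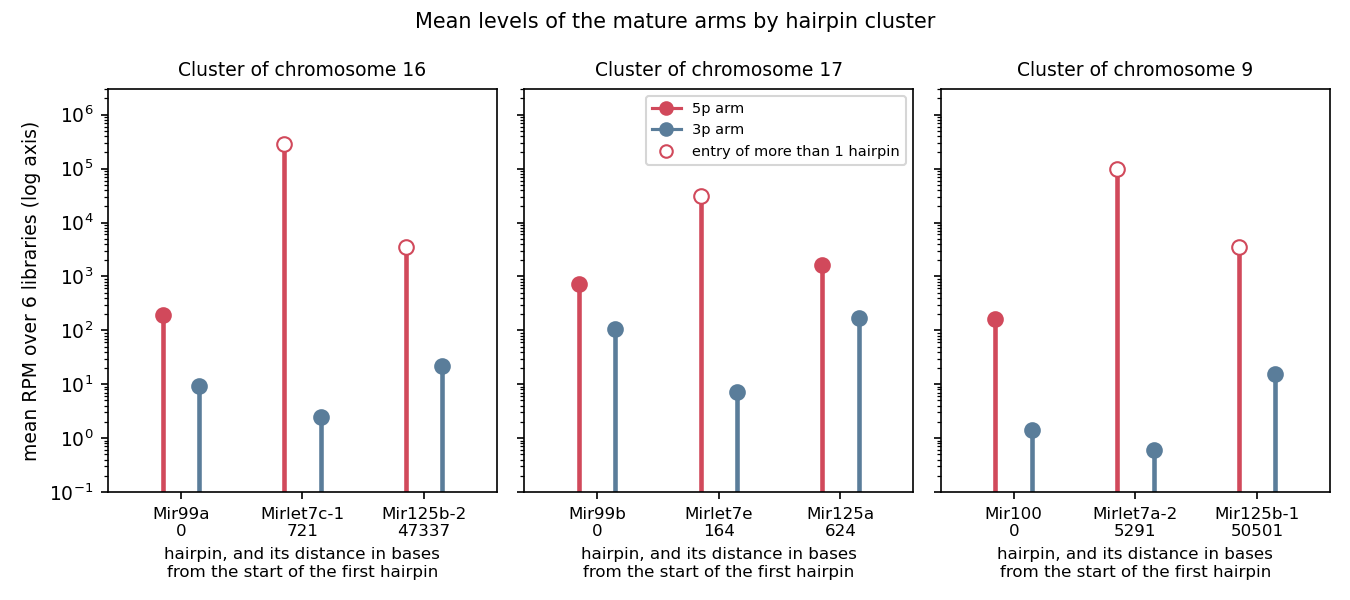
Mean RPM over the 6 libraries on a log axis for the 5p and 3p arms of the 9 hairpins in 3 clusters, with the distance of each hairpin from the first under its name. Open circles are entries fed by more than 1 hairpin. In each cluster the let-7 5p arm is the highest.

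5 such ratios were compared between SE and CON by exact permutation (two-sided), whose smallest possible p with 3 libraries per group is 0.1. The log2 ratio of miR-99a-5p to let-7c-5p was -10.81, -11.07 and -10.61 in the SE libraries and -10.27, -10.58 and -9.99 in the CON libraries. SE was lower in every library, by 0.55 between the means (exact permutation p = 0.1, adjusted p = 0.25). The log2 ratio of miR-99b-5p to let-7e-5p was -5.35, -5.73 and -5.63 in SE and -5.32, -5.27 and -5.08 in CON libraries. SE was again lower in every library, here with SE replicate 1 next to CON replicate 1. The means differed by -0.35 (exact permutation p = 0.1, adjusted p = 0.25). In RPM, miR-99a-5p and miR-99b-5p also lay lower in SE without overlap, as 13.4% of all tested miRNAs did. Both overlapped with RPM rescaled without let-7 or by the median of ratios. For ratios to let-7, the share of all tested miRNAs without overlap was not computed. miR-100-5p to let-7a-5p differed by -0.23 (exact permutation p = 0.2, adjusted p = 0.333). miR-125a-5p to let-7e-5p differed by -0.11 (exact permutation p = 0.7), and that difference was 0.07 without SE replicate 3. miR-99b-5p to miR-125a-5p, the outer hairpins of the Spaca6 cluster, differed by -0.24 with overlapping groups (exact permutation p = 0.3, adjusted p = 0.375).

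Between members the same kind of ratio can be taken. miR-125b-5p was 1.86 to 2.35 times as abundant as miR-125a-5p, its relative in seed, over the 6 libraries. miR-125a-5p was 1.83 to 2.92 times as abundant as miR-99b-5p, its neighbour on chromosome 17. Over the 6 libraries Pearson's r of log2(RPM + 1) was 0.83 between miR-125a-5p and miR-125b-5p (Spearman's rho 0.83), and 0.76 to 0.82 among the 3 members of the miR-99 seed. Between the families it ran from -0.26 to 0.44, and for members of 1 cluster it was 0.06 (miR-99b-5p with miR-125a-5p), 0.44 (miR-99a-5p with miR-125b-5p) and -0.16 (miR-100-5p with miR-125b-5p). As miR-125b-5p comes from the clusters of both chromosome 9 and chromosome 16, only the first of these pairs lies wholly within 1 cluster. These are descriptions of 6 libraries that share their scaling and hold both groups, and no test was made.

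The ratio of miR-99a-5p to miR-100-5p, singled out after its values were seen, was 1.07, 1.15 and 1.01 in SE and 1.46, 1.18 and 1.32 in CON libraries. The groups did not overlap, although SE replicate 2 and CON replicate 2 were close. As a ratio chosen for its values it gets no test, and the share of all such ratios without overlap was not computed. Summed, these near-identical miRNAs came to 317 RPM ± 49.6 for SE and 402 RPM ± 58.3 for CON (SD, n = 3), with overlap: SE replicate 3 had 370 RPM and CON replicate 2 had 353 RPM.

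The opposite arms, which are usually degraded once the guide strand is loaded, give a second reading of the same hairpins. Their sequences show that the 3p arms, unlike the 5p arms, differ in seed between Mir99a and Mir100 and between the 2 sources of miR-125b-5p.
miR-99a-3p: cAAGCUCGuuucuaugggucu
miR-99b-3p: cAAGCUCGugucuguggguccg
miR-100-3p: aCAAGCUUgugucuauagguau
miR-125a-3p: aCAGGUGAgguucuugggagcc
miR-125b-1-3p: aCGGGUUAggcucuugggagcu
miR-125b-2-3p: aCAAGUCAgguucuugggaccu

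Strand balance differed widely between hairpins. The 5p arm exceeded the 3p arm 6.34-fold to 7.90-fold for Mir99b and 7.39-fold to 12.4-fold for Mir125a over the 6 libraries. For Mir99a the ratio was 16.1 to 26.8, and for Mir100 62.6 to 246, the last resting on 4 to 14 reads of miR-100-3p per library. Mir99a and Mir100, whose guide strands differ by 1 base, thus had ranges of strand ratio that did not meet. Each of these 4 ratios overlapped between SE and CON. The neighbour let-7e, in an entry that also holds let-7k, had a 5p arm 3160-fold to 5957-fold above let-7e-3p. The read assignment among let-7 miRNAs, which is not known, bears on that 5p level as well.

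The 3p arms tell the sources of miR-125b-5p apart. miR-125b-2-3p, from chromosome 16, stood at 24.9, 26.1 and 19.1 RPM in the SE libraries and 25.0, 17.1 and 19.8 RPM in the CON libraries. miR-125b-1-3p, from chromosome 9, stood at 23.97, 13.3 and 15.1 RPM in the SE libraries and 10.37, 15.7 and 15.7 RPM in the CON libraries. The first was the higher one in all 6 libraries, by 1.04 to 2.41 times, and both were far below the guide strand. How the guide strand divides between its sources cannot be read from these arms, as each hairpin may keep a different share of its 3p arm.

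**Figure D5:**
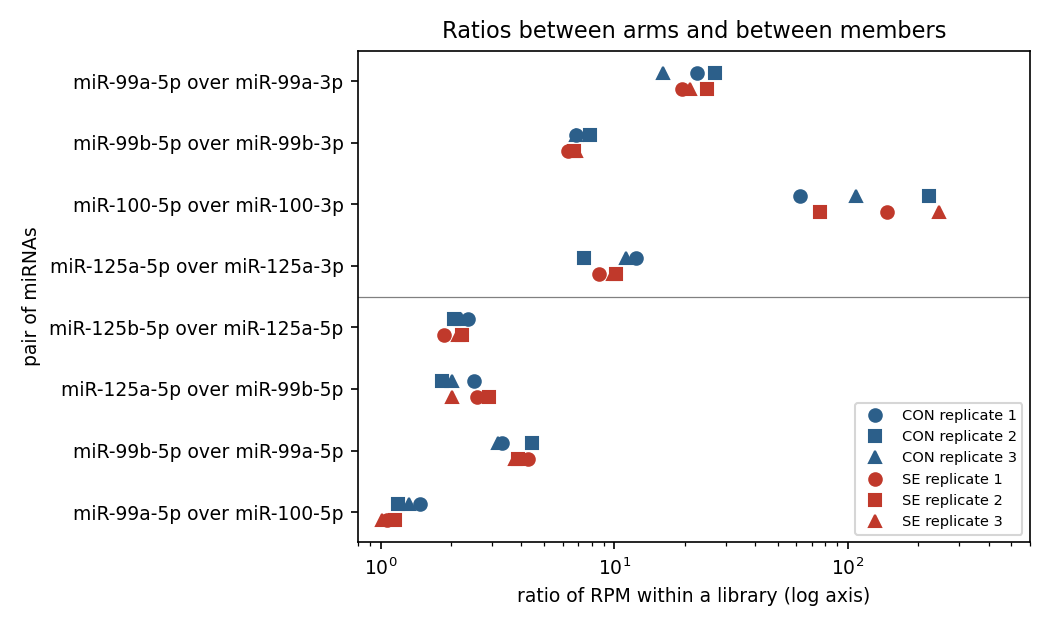
Ratios of RPM within each library on a log axis: 5p over 3p arm for 4 hairpins above the line, and pairs of members below it, with 1 point per library (3 SE, 3 CON). The arm ratios run from 6.34 for Mir99b to 246 for Mir100, and of the 8 ratios that of miR-99a-5p to miR-100-5p alone has no overlap between groups. It was singled out after its values were seen, and SE replicate 2 (1.15) and CON replicate 2 (1.18) nearly meet. The share of all such ratios without overlap was not computed.

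Of the 6 opposite arms of the members' hairpins, 4 passed the filter and 0 were called by limma, beside 1.03% of all tested miRNAs. At an unadjusted p under 0.05 there were 0, beside 9.31% of all tested. miR-99b-3p stood at 107, 83.8 and 102 RPM in the SE libraries and 111, 107 and 124 RPM in the CON libraries. The groups did not overlap, though SE replicate 1 and CON replicate 2 were nearly equal, and 13.4% of all tested miRNAs were likewise lower in SE without overlap. With RPM rescaled without let-7 or by the median of ratios its groups overlapped. It had a log2 difference of -0.23 (limma adjusted p = 0.829). miR-125a-3p had -0.02, miR-125b-1-3p 0.29 and miR-125b-2-3p 0.17, with overlap in each. miR-99a-3p (7.61 RPM ± 1.59 for SE, 11.3 RPM ± 4.76 for CON, SD, n = 3) and miR-100-3p (1.14 RPM ± 0.470 and 1.69 RPM ± 0.896) lay under the filter. The let-7 guide strands of the clusters had log2 differences of 0.07 for let-7c-5p, 0.04 for let-7a-5p and 0.00 for the entry of let-7e-5p and let-7k, and limma called 0 of 3, with 0 at an unadjusted p under 0.05. miR-351-5p, the rodent relative of miR-125 on chromosome X, averaged 64.1 RPM ± 15.1 for SE and 55.4 RPM ± 4.14 for CON (SD, n = 3), a log2 difference of 0.19 (limma adjusted p = 0.871).

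The miRNAs most like each member over the 6 libraries, by Pearson's r of log2(RPM + 1), are given as descriptions. For miR-99a-5p they were miR-376b-3p (r 0.995), miR-532-5p (0.98) and miR-16-5p (0.96). For miR-99b-5p they were miR-146b-5p (0.98), miR-342-3p (0.95) and miR-191-5p (0.94), and for miR-100-5p miR-376c-3p (0.92), miR-411-5p (0.87) and miR-700-3p (0.84). miR-125a-5p was followed most closely by miR-139-5p (0.99), miR-345-3p (0.91) and miR-676-3p (0.91), and miR-125b-5p by miR-142a-5p (0.98), miR-206-3p (0.96) and miR-27a-3p/27b-3p (0.96). These values come from 6 libraries that share their scaling and hold both groups, and no p is given. They are the highest among all tested miRNAs besides the members, and such selection alone raises them.

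Some marker miRNAs of other cell types were also lower in the SE libraries, as miR-99a-5p and miR-99b-5p were. The 3 miRNAs listed for astrocytes, miR-143-3p, miR-29a-3p and miR-24-3p, summed to 10779 to 11470 RPM in SE and 12322 to 16216 RPM in CON libraries. Most of that sum was miR-29a-3p, at 6458 to 7288 RPM in SE and 7703 to 11347 RPM in CON libraries. The cells that these miRNAs came from were not tested. The 2 liver miRNAs came to 92.8 to 117 RPM in SE and 154 to 239 RPM in CON libraries. The 3 muscle miRNAs came to 208 to 222 and 234 to 311 RPM. Other scalings were not applied to these sums. limma called 0 of the 3 astrocyte, 1 liver and 2 muscle miRNAs that passed the filter, beside 1.03% of all tested. The liver one, miR-122-5p, came closest, with a log2 difference of -0.91 and limma adjusted p = 0.0504. In each list 1 member had no overlap, miR-29a-3p, miR-122-5p and miR-1a-3p, beside 13.4% of all tested miRNAs lower in SE without overlap, and the other members overlapped. The 5 neuronal, 2 endothelial, 3 oligodendrocyte, 4 microglial and leukocyte, 3 red cell and 2 choroid plexus miRNAs overlapped between the groups in their sums. Their part in the values of the members was not tested.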

How the data were processed

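miRNA was measured in 6 libraries (3 SE, 3 CON) made with the QIAseq miRNA kit, per the labels. The submitters' processing notes name mm9 and DESeq2 with no role, and the aligner, counter and use of molecular identifiers are not given in the sources used here. The authors' deposited RPM values are reads per 1000000 reads of the listed miRNAs. Each was a whole multiple, within 0.01 reads, of the worth of 1 read, taking the lowest value of a column as 2 reads. The authors' deposited table of fold changes gives a base mean of normalized counts (a signal per miRNA), log2 fold changes with standard errors, a Wald score and p-values. CON rows were put back under their names by matching 6 times the base mean, less the normalized SE reads, to CON rows. 597 miRNAs had 1 candidate row and 90 several identical ones.

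The main test was limma-trend from limma 3.58.1 under R 4.3.3, run on log2(RPM + 1) of miRNAs averaging 10 RPM or more, with Benjamini-Hochberg adjustment over 290 and a threshold of 0.05. Cluster ratios used an exact permutation test. The fit was tested on simulated data. Named miRNAs are the members, their cluster products, seed relatives and marker lists, the 3 miRNAs most like each member and its neighbours in level. Members and lists were chosen with earlier results of these data known. Alternatives were other pseudocounts, filters and scalings, limma without trend or by voom, the replicate number as a block, each library left out, and CON values read beside the names where they stand in the file, the last chosen after seeing the data. Python 3.11.15 with pandas 2.3.3, scipy 1.17.1 and matplotlib 3.10.9 was used.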

Additional observations from a re-analysis of the deposited data

How the results depend on the processing

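The count of members called was 0 under each of the 17 alternatives. The differences of miR-99a-5p, miR-99b-5p, miR-100-5p and miR-125b-5p were below 0 in each, but both other filters, limma without trend and the replicate block cannot change them by construction. Reading CON values beside the names where they stand gave -0.21 for miR-99a-5p. The lowest adjusted p of a member was 0.231, for miR-99a-5p without CON replicate 2, where its log2 difference was -0.60. The difference of miR-125a-5p turned to 0.00069 with median-of-ratios scaling, 0.019 with quantile normalization and 0.022 with RPM rescaled without let-7. Over all tested miRNAs, 3 were called. That count ran from 3 to 6 with single libraries left out, 6 without CON replicate 2 and 5 without CON replicate 3, and was 0 with CON values read beside the names where they stand in the file, and 4 at an adjusted p under 0.1. Of the reads without let-7, the members took 2.95% in SE and 3.10% in CON libraries. The ratio of miR-125a-5p to let-7e-5p differed by -0.25 to 0.073 with single libraries left out. The replicate block left 0 members and 3 miRNAs called, with -0.48 for miR-99a-5p and adjusted p = 0.608. Same-numbered SE and CON libraries had deviations from their group means that correlated at -0.42, -0.25 and 0.04. With 3 libraries per group such values cannot show whether the numbers mark pairs, which the labels do not state. The main fit was planned without the block. Counting error, at most 3.63% for a member, is below the spread between libraries of a group, 6.01% to 18.8%.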
